A study of Arabidopsis thaliana with 24 samples.

Results

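WRKY transcription factors of Arabidopsis thaliana were described here through a list of 56 loci, each named WRKY with its usual number. Statements on the family and its groups refer to these loci only, and other WRKY genes were not searched for. The deposited table of raw counts held all 56 among its 34212 genes, and 54 reached at least 10 counts in 1 or more of the 24 libraries. The members dropped were WRKY55 and WRKY12, a regulator of pith cell wall thickening, with at most 4 and 5 counts in any library. The nearest members kept were WRKY62, with at most 27 counts, and WRKY59, with at most 47 counts. All 56 numbers matched the RefSeq symbol or a synonym of their locus, and no member gene had a copy elsewhere at 95% identity or more over at least 50% of its length.

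WRKY proteins bind DNA through a domain that carries the amino acids of their name and a zinc finger, and most of them recognise the W box, a short element with the core TTGAC. They are sorted into groups I, IIa to IIe and III by the number of WRKY domains and the type of zinc finger. Many are induced within hours by pathogens, wounding or salicylic acid, and W boxes in their own promoters place them in a network of mutual control. Others act in senescence, phosphate supply, seed and trichome development or secondary wall formation.

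RNA was taken from main root segments of plants that were all homozygous for pANT:XVE>>axr3-1-YFP. In this line estradiol (EST) switches on axr3-1, a stabilised repressor of auxin signalling, from the promoter of ANT, so that the repressor is expected in the ANT domain, which includes the cambium, and not in all cells of the root. Plants were 9 days old at transfer. The groups, each with 3 libraries, were 5 µM EST, 5 µM EST with 1 µM of the cytokinin 6-benzylaminopurine (EST + BAP), 1 µM BAP alone, and the solvent control DMSO, sampled after 4 h and again, in a separately run experiment, after 24 h. No group lacked the transgene, so an action of EST apart from axr3-1 cannot be told apart from that of the repressor. By the methods, treatment and harvest were run 3 times at each time point, so the p-values measure the spread between such repeats, and how many plants went into a library is not given in the sources used here.

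Total counts per library ran from 14514022 to 45586679. AXR3, whose counts pool the native gene and the transgene, was at 131 to 176 CPM (counts scaled to library size with TMM factors, a unit that suits comparison of 1 gene between libraries) in EST 4 h, at 258 to 314 CPM in EST + BAP 4 h and at 155 to 177 CPM in BAP 4 h, against 47.5 to 50.8 CPM in DMSO 4 h, so that the ranges of BAP alone and EST alone overlapped. After 24 h it was at 81.4 to 89.6 CPM in EST, against 69.7 to 77.7 CPM in DMSO, and at 137 to 168 CPM in EST + BAP, against 202 to 219 CPM in BAP. BAP 24 h replicate 1 and DMSO 24 h replicate 1 stood apart, with 37.5% and 58.6% of their counts on ribosomal RNA and organelle genes. They were also the highest library of their own group for WRKY18, WRKY33, WRKY40, WRKY46 and WRKY53. EST + BAP 24 h replicate 1, with 22.7% of its counts on ribosomal RNA and organelle genes, was the highest of its group for the same genes. The 24 h results were therefore also computed without all 24 h replicate 1 libraries, an alternative chosen after seeing the data. In whole root segments, fewer cells of a type and less RNA per cell cannot be told apart.

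Levels are given first as CPM per kilobase of the longest annotated mRNA, which allows genes to be compared with one another. Averaged over the 24 libraries, 4 members led the list: WRKY40 at 145 CPM per kilobase, WRKY33 at 120, WRKY18 at 116 and WRKY46 at 113. The next was WRKY48, a repressor of basal defence, at 54.4 CPM per kilobase. WRKY40 and WRKY18, group IIa partners that repress basal defence, also varied most in absolute terms, between 18.8 and 311 and between 13.1 and 289 CPM per kilobase over single libraries. The third group IIa member, WRKY60, was far lower at 7.79 CPM per kilobase. The highest member of group IIb was WRKY72 at 22.6 CPM per kilobase, that of IId was WRKY17 at 53.4 and that of IIe was WRKY65 at 37.3. At the low end of the kept members stood WRKY44 at 0.695, WRKY8 at 0.553, WRKY59 at 0.473 and WRKY62 at 0.215 CPM per kilobase.

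Promoters were examined because W boxes are the element that WRKY proteins bind. Among the 250 bases before to 50 bases after the annotated start, 22 of 56 members (39.3%) held the W box forms TTGACC or TTGACT on either strand, against 32.4% of 27443 protein-coding genes. For 2 or more such boxes the counts were 11 of 56 members (19.6%), against 7.7% of all promoters. The 250 upstream bases of 4 members on which the results turn are shown because they differ in this element: WRKY53 and WRKY33 hold 2 W boxes each, WRKY75 holds 1 close to its start, and WRKY51 holds neither of the searched forms but has the shorter core TTGAC once, followed by A. Their loci are AT4G23810, AT2G38470, AT5G13080 and AT5G64810, in that order. The sequences are from RefSeq, build TAIR10.1, written 5′ to 3′ on the strand of the gene, with the searched forms in capitals (AGTCAA and GGTCAA are the same element read on the other strand).
WRKY53 (chr4:12393983-12394232, minus strand): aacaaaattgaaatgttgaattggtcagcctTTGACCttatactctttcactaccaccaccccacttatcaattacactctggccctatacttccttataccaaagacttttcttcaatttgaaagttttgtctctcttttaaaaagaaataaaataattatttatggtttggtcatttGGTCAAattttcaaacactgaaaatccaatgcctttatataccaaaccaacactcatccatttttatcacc
WRKY33 (chr2:16107985-16108234, plus strand): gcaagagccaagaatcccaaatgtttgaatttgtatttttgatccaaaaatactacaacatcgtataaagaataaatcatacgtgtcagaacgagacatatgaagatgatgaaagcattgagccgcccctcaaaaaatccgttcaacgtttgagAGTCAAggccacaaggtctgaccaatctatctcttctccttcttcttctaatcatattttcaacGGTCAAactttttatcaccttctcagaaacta
WRKY75 (chr5:4151202-4151451, minus strand): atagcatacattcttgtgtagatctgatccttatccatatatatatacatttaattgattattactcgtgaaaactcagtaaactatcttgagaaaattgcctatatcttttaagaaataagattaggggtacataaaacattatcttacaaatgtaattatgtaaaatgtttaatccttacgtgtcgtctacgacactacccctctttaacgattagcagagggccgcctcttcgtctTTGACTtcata
WRKY51 (chr5:25907997-25908246, plus strand): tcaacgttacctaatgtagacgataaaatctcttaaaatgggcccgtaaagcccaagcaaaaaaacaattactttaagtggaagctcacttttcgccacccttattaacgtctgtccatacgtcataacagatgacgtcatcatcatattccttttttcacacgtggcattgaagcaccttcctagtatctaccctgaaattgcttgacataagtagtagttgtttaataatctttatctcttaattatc

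A member was called when its log2 fold change was at least 0.5 in either direction and its Benjamini-Hochberg adjusted p from edgeR's quasi-likelihood test, taken over all genes tested, was at most 0.05. Between 51 and 54 members passed the low-count filter of each comparison. The heat map of log2 fold changes shows the kept members together: most of the calls are in the 24 h columns.

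**Figure D1:**
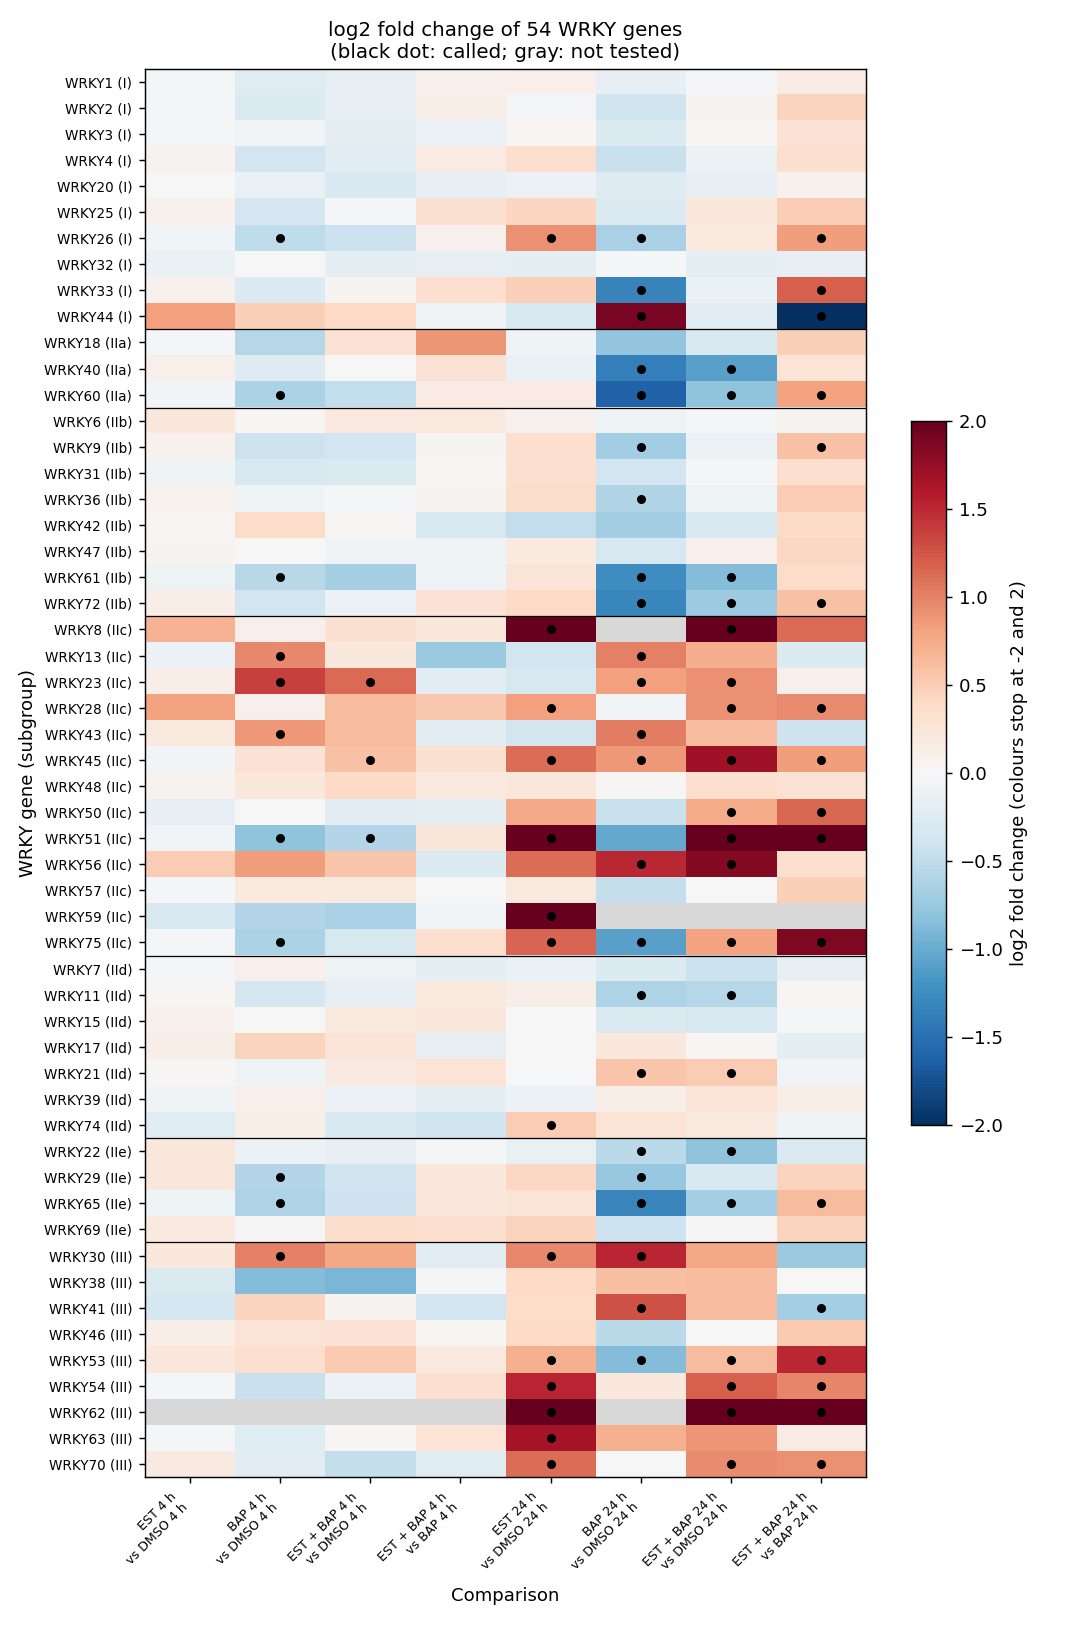
log2 fold change of the 54 kept WRKY genes (down the page, by subgroup) in 8 comparisons (across), with colours that stop at -2 and 2, a black dot for each call and gray where the gene was not tested. Dots crowd the 4 columns of 24 h, and EST 24 h against DMSO 24 h has 14 dots, all on higher values.

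The question of EST against DMSO was which genes respond when auxin signalling is repressed in the ANT domain. After 24 h of EST, 14 of 54 WRKY genes rose and 0 fell, where 6.26% of all 21235 genes tested were higher and 8.96% were lower. The median log2 fold change was 0.33 over the members and 0.01 over all genes tested. Of the 14, 6 were of group IIc (WRKY75, WRKY8, WRKY28, WRKY51, WRKY45 and WRKY59), 6 of group III (WRKY53, WRKY70, WRKY54, WRKY30, WRKY62 and WRKY63), and the others were WRKY26 and WRKY74. No member fell by the call, and 0 of 54 were lower under DESeq2 as well, although 29 members had an unadjusted p under 0.05 in one direction or the other. Calls of 9 of the 14 (WRKY70, WRKY54, WRKY75, WRKY62, WRKY26, WRKY8, WRKY51, WRKY45 and WRKY59) held in every fit tried, but WRKY62, WRKY59 and WRKY8 passed the low-count filter only through the EST libraries, so that their calls carry no weight of their own. The count was 9 when EST replicate 3, DMSO replicate 2 or DMSO replicate 3 was left out, and 17 without the replicate 1 libraries.

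After 24 h of BAP alone, 9 of 51 WRKY genes rose and 14 fell, against a background of 17.6% of genes higher and 17.2% lower. The members that rose were thus at the share of all genes, 17.6%, and those that fell were 27.5% of the members. The median log2 fold change was -0.29 over the members and -0.02 over all genes tested. Lower members included WRKY33, WRKY40, WRKY60, WRKY53 and WRKY75, and higher ones WRKY23, WRKY44, WRKY30 and WRKY45. Of the 23 calls, 18 held in every fit tried.

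With both compounds for 24 h, 13 of 53 members rose and 7 fell relative to DMSO, where 10.4% of all genes were higher and 10% lower. Of the members that rose, WRKY62 and WRKY8 passed the low-count filter only through the EST + BAP libraries. Their calls therefore carry no weight of their own. Set against BAP alone, EST + BAP raised 15 of 53 members and lowered 2, WRKY44 and WRKY41, where 11.6% of genes were higher and 11.8% lower. The median log2 fold change of EST + BAP against BAP was 0.37 over the members and 0.01 over all genes tested. EST + BAP and BAP share no library with EST and DMSO. Of the 53 members tested in both, 42 had the same sign in the 2 comparisons, or 79.2%, and the same held for 78.9% of 20732 genes, so the shared sign was at the level of all genes. Pearson's r between the 2 log2 fold changes was 0.80 over the 53 members (Spearman's rho 0.65) and 0.78 over all genes, with genes as the points and no test. Called higher in both were 9 members, which were 69.2% of the 13 called without BAP and 60% of the 15 called with it: WRKY53, WRKY70, WRKY54, WRKY75, WRKY62, WRKY26, WRKY28, WRKY51 and WRKY45. WRKY62, counted among the 9, the 13 and the 15, passed the filter only through the groups with EST. WRKY8, among the 13, did so too. Their places in these counts carry no weight of their own.

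**Figure D2:**
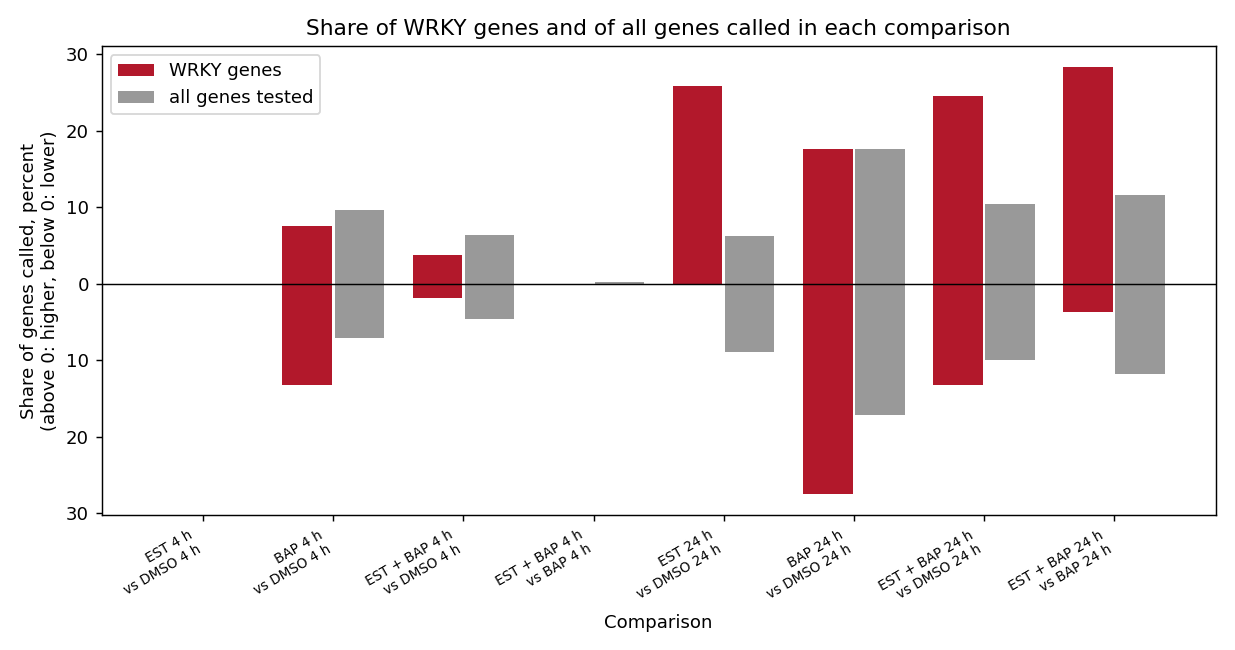
Share of WRKY genes (red) and of all genes tested (gray) called in each of 8 comparisons (across), in percent, with higher above 0 and lower below 0. In EST 24 h against DMSO 24 h the WRKY genes reach 25.9% higher and 0% lower, against 6.26% and 8.96% of all genes.

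**Figure D3:**
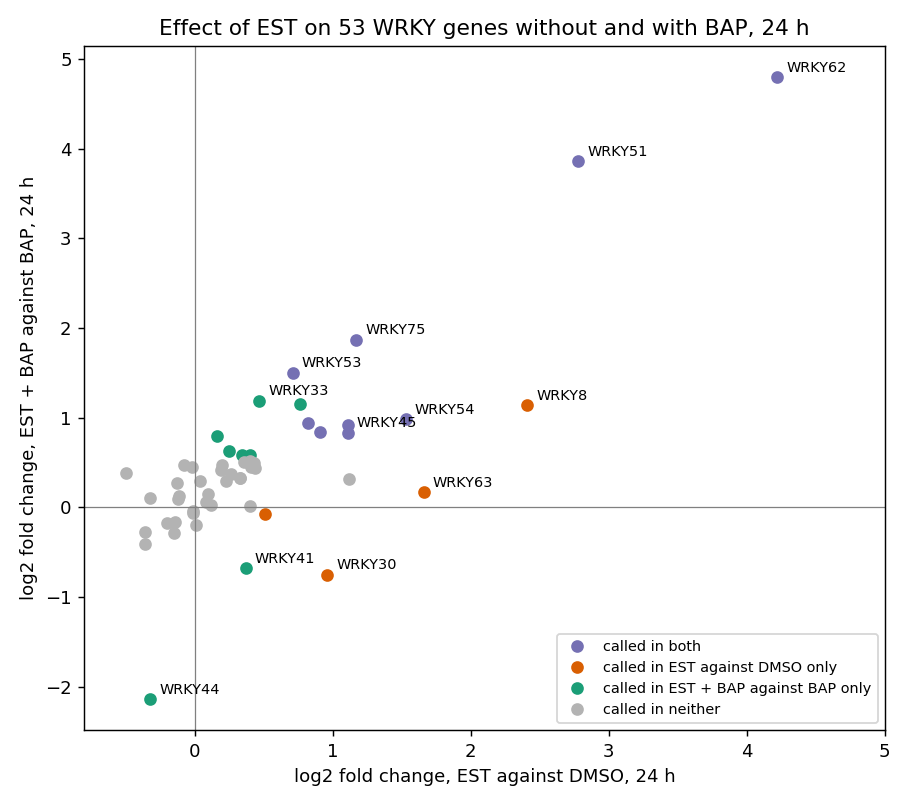
log2 fold change of EST + BAP against BAP (vertical axis) plotted on that of EST against DMSO (horizontal axis) at 24 h, 1 point for each of 53 WRKY genes, coloured by the comparison in which it was called. Most points lie right of and above 0, and WRKY44 lies lowest at -2.14 on the vertical axis. The position of WRKY62, at the upper right, rests on 1 and 2 counts in the BAP and DMSO libraries.

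Among the members tied to salicylic acid and senescence, WRKY70 and WRKY54, a close pair that acts in salicylic acid signalling and delays senescence, moved alike. WRKY54 (AT2G40750) was at 7.4, 7.93 and 9.6 CPM in EST 24 h, 6.67, 6.39 and 6.73 CPM in EST + BAP, 2.98, 4.07 and 3.02 CPM in BAP, and 2.48, 3.72 and 2.19 CPM in DMSO. Both groups with EST lay above both without it, with no overlap. The edgeR log2 fold change was 1.53 ± 0.21 (SE, adjusted p = 0.00111) for EST against DMSO and 0.98 ± 0.15 (adjusted p = 0.00108) for EST + BAP against BAP.

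WRKY70 (AT3G56400) was at 16.5, 22.6 and 21.5 CPM in EST 24 h, 22.6, 14.9 and 16.2 CPM in EST + BAP, 13.1, 7.07 and 8.63 CPM in BAP, and 13.1, 8.64 and 7.82 CPM in DMSO. Again every library with EST lay above every library without it, and the replicate 1 library was the highest in 3 of the 4 groups. Its edgeR log2 fold change was 1.11 ± 0.19 (adjusted p = 0.00312) for EST against DMSO and 0.92 ± 0.24 (adjusted p = 0.0146) for EST + BAP against BAP, where the call was lost without BAP replicate 3 (adjusted p = 0.0576).

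WRKY53, an activator of leaf senescence, was higher under EST and lower under BAP. It was at 48.2, 52.9 and 69.6 CPM in EST 24 h, 61.6, 55.4 and 46.1 CPM in EST + BAP, 27.6, 17 and 14 CPM in BAP, and 46.4, 30.1 and 30.3 CPM in DMSO. All BAP libraries lay below all others, and the EST libraries lay above all DMSO libraries by a narrow margin. The edgeR log2 fold change was 0.71 ± 0.19 for EST against DMSO (adjusted p = 0.0245), -0.87 ± 0.25 for BAP against DMSO (adjusted p = 0.019) and 1.50 ± 0.23 for EST + BAP against BAP (adjusted p = 0.0012). The first call was lost without EST replicate 3, DMSO replicate 2 or DMSO replicate 3, and the second without BAP replicate 2, BAP replicate 3 or DMSO replicate 1 (adjusted p up to 0.0999 and 0.0678). Without the replicate 1 libraries the values were 1.02, -0.97 and 1.73.

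WRKY46 (AT2G46400), which acts with WRKY54 and WRKY70 in defence and in brassinosteroid-regulated growth, had the highest level per length of group III. With the settings given above it was not called in the comparisons of 24 h. It was at 120, 145 and 169 CPM in EST 24 h, 121, 110 and 98.2 CPM in EST + BAP, 103, 57.8 and 70.9 CPM in BAP, and 145, 91.2 and 95.5 CPM in DMSO, with overlap between neighbouring groups. For BAP against DMSO the edgeR log2 fold change was -0.54 (adjusted p = 0.084), and with the replicate number as a block it was -0.56 (adjusted p = 0.000543). For EST + BAP against BAP it was 0.52 (adjusted p = 0.0578), and with the block 0.56 (adjusted p = 0.01). With no low-count filter edgeR called both, at -0.53 (adjusted p = 0.0351) and 0.53 (adjusted p = 0.0313). DESeq2 called the second too (0.52, adjusted p = 0.0124). Without the replicate 1 libraries WRKY46 was called in EST against DMSO too, with a log2 fold change of 0.76.

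WRKY62 (AT5G01900), a nuclear repressor of basal defence induced through NPR1, was near absence without EST at 24 h. Its counts summed over the 3 libraries to 68 in EST 24 h against 2 in DMSO 24 h, and to 52 in EST + BAP against 1 in BAP. These are ratios of 21.3 (95% exact binomial interval 5.67 to 179) and 35.4 (6.08 to 1430) after scaling by library size, intervals that cover counting error only. In CPM it was at 0.614, 0.623 and 0.907 in EST, 0.549, 0.554 and 0.568 in EST + BAP, at 0, 0.0416 and 0 in BAP, and 0.138, 0.0354 and 0 in DMSO. It passed the low-count filter only through the groups with EST, so these values are a description. At 4 h it had 6, 5 and 6 counts in EST and 1, 12 and 9 counts in DMSO.

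Among members with ample counts, WRKY51 of group IIc rose most with EST at 24 h, without BAP and with it. WRKY51, which with WRKY50 represses jasmonate signalling when oleic acid is low, was at 9.24, 15.8 and 16.9 CPM in EST 24 h, 15.9, 14 and 15.6 CPM in EST + BAP, 0.733, 1.41 and 0.926 CPM in BAP, and 3.17, 2.41 and 1.13 CPM in DMSO. The libraries with EST lay far above all others, and BAP overlapped only the lowest DMSO library. In edgeR its log2 fold change was 2.78 ± 0.33 for EST against DMSO (adjusted p = 0.000567) and 3.86 ± 0.19 for EST + BAP against BAP (adjusted p = 9.4e-06). For BAP against DMSO it was -1.03 ± 0.4 (adjusted p = 0.06), and -1.01 with the replicate block (adjusted p = 0.0368).

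WRKY50 (AT5G26170) was at 4.16, 3.79 and 4.68 CPM in EST + BAP and 1.68, 2.16 and 1.85 CPM in BAP, a log2 difference of 1.15 ± 0.17 in edgeR (adjusted p = 0.000991). In EST it was at 4.13, 4.52 and 4.16 CPM, all above the DMSO libraries at 3.86, 1.73 and 2.63 CPM, with an edgeR log2 fold change of 0.76 (adjusted p = 0.0514). That rise was called in some alternatives and not in others. It was called with DESeq2 (0.74, adjusted p = 0.0386) and with no low-count filter (0.78, adjusted p = 0.0292 in edgeR). All 4 groups in 1 fit gave 0.77 (adjusted p = 0.0185 in edgeR). WRKY59 (AT2G21900) had 129 counts over the EST 24 h libraries, against 13 in DMSO, a ratio of 6.22 (95% exact interval 3.51 to 12, counting error only). It passed the filter only through EST, and in BAP it had 0, 4 and 0 counts and was filtered out.

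WRKY8 (AT5G46350), a factor of defence and salt tolerance, was higher after 24 h of EST, without and with BAP, than in DMSO. It was at 0.754, 0.951 and 1.28 CPM in EST, 1.92, 1.37 and 0.962 CPM in EST + BAP, 1.1, 0.499 and 0.39 CPM in BAP, and 0.138, 0.212 and 0.162 CPM in DMSO. No treated library reached down to the DMSO libraries, which had 1, 6 and 4 counts. Against DMSO, WRKY8 passed the low-count filter only through the groups with EST, so its calls there carry no weight of their own. The edgeR log2 fold change was 2.41 ± 0.39 for EST (adjusted p = 0.00261) and 2.93 ± 0.41 for EST + BAP (adjusted p = 0.000628), while BAP alone did not pass the low-count filter and gave 1.79 (adjusted p = 0.0187) when that filter was dropped. Against BAP, EST + BAP gave 1.14 ± 0.42 (adjusted p = 0.0563), and 1.16 with the replicate block (adjusted p = 0.0127).

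**Figure D4:**
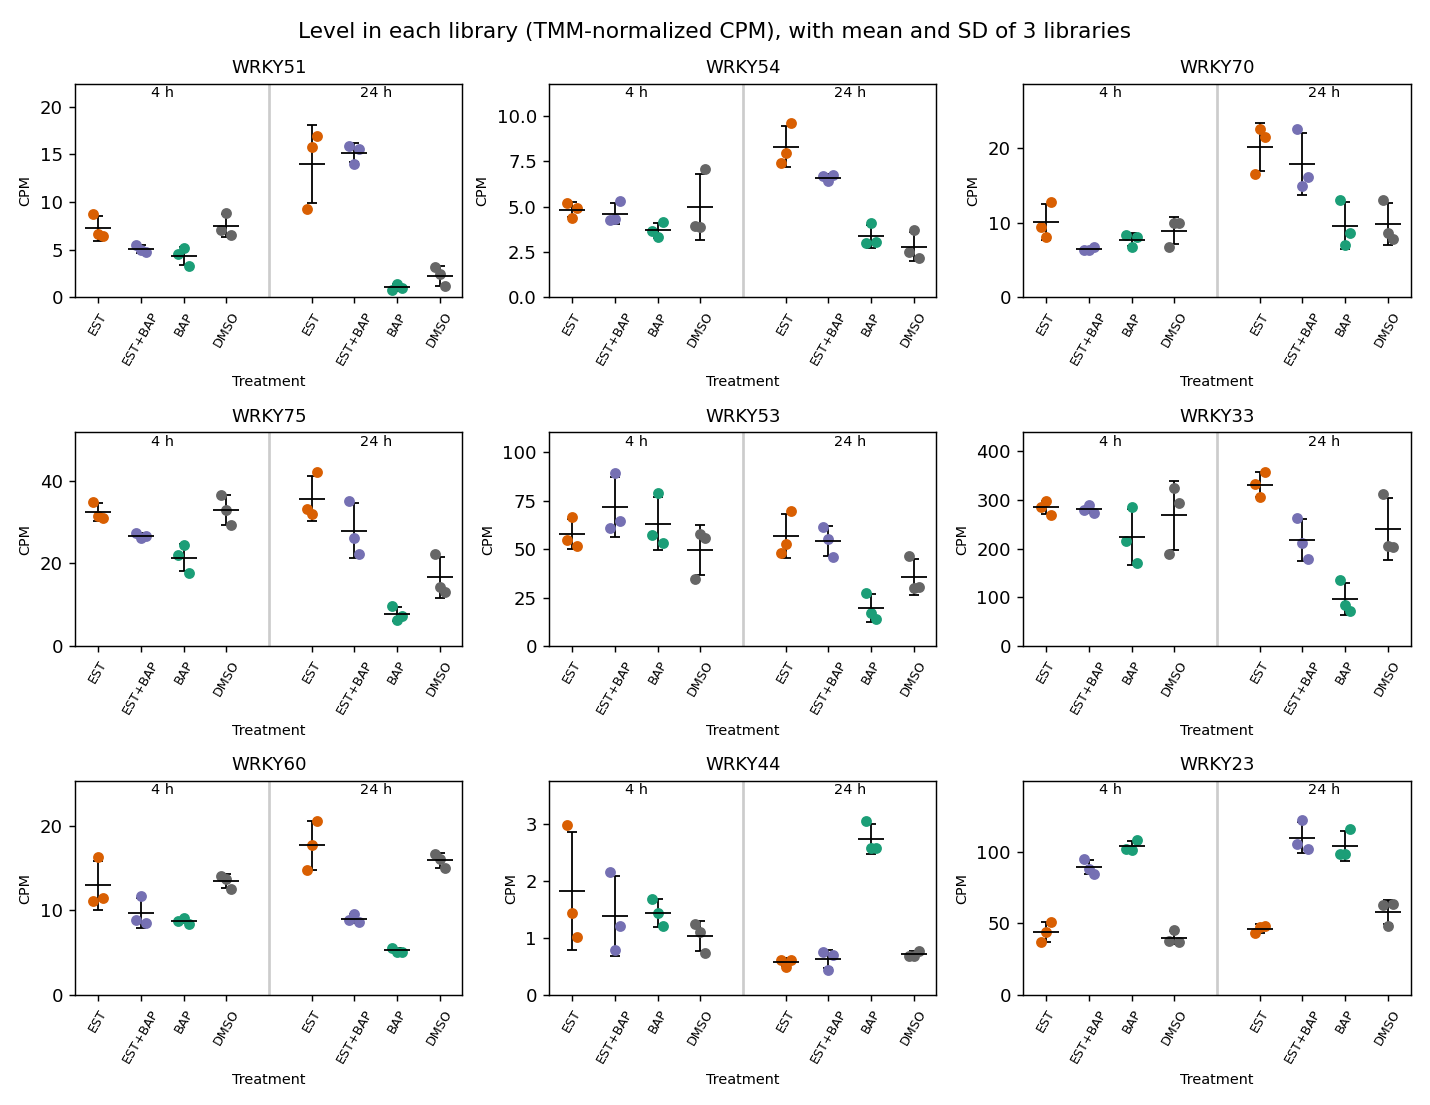
CPM of 9 WRKY genes in each of the 24 libraries (points), with the mean and SD of 3 libraries (black), for EST, EST + BAP, BAP and DMSO at 4 h (left of each panel) and 24 h (right). At 24 h the EST and EST + BAP libraries of WRKY51 lie between 9.24 and 16.9 CPM, above all BAP and DMSO libraries, and WRKY44 stands high in BAP alone.

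The members known from phosphate supply did not move as one. WRKY75, which activates phosphate starvation genes and restrains lateral roots and root hairs, was at 33.1, 31.9 and 42 CPM in EST 24 h, 35.2, 26.2 and 22.3 CPM in EST + BAP, 9.63, 6.32 and 7.31 CPM in BAP, and 22.2, 14.4 and 13.2 CPM in DMSO. BAP lay below and EST above all DMSO libraries, and EST + BAP lay just above the highest DMSO library. In edgeR the log2 fold change was 1.17 ± 0.18 for EST (adjusted p = 0.00226), -1.08 ± 0.22 for BAP (adjusted p = 0.00306) and 1.87 ± 0.2 for EST + BAP against BAP (adjusted p = 0.000237).

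WRKY45 (AT3G01970), an activator of the phosphate transporter gene PHT1;1, rose in all 4 pairwise comparisons of 24 h. It was at 26.6, 20.8 and 24.7 CPM in EST, 40.1, 34.9 and 33.2 CPM in EST + BAP, 22.5, 21.1 and 17.9 CPM in BAP, and 12.8, 11.3 and 9.85 CPM in DMSO. The groups with a single compound overlapped each other, EST + BAP lay above both, and DMSO lay below. Its edgeR log2 fold change against DMSO was 1.11 ± 0.13 for EST (adjusted p = 0.000403), 1.70 ± 0.12 for EST + BAP (adjusted p = 9.15e-06) and 0.86 ± 0.13 for BAP (adjusted p = 0.000593). Against BAP, EST + BAP was higher by 0.83 ± 0.11 (adjusted p = 0.000546).

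WRKY6 and WRKY42, which repress the phosphate exporter gene PHO1, were not called by edgeR in the pairwise comparisons of 24 h. WRKY6 was at 48.5, 40.2 and 50.1 CPM in EST and 49.3, 39.5 and 43.8 CPM in DMSO, ranges that overlap almost wholly. WRKY42 was at 4.77, 4.03 and 4.6 CPM in EST and 7.99, 5.17 and 6.44 CPM in DMSO, without overlap, and its edgeR log2 fold change was -0.50 (adjusted p = 0.0628). Under BAP it was at 2.83, 5.82 and 3.17 CPM, overlapping DMSO in 1 library, with an edgeR log2 fold change of -0.69 (adjusted p = 0.0661). That fall was called with DESeq2 (-0.72, adjusted p = 0.0315), without the low-count filter (-0.68, adjusted p = 0.0379 in edgeR) and with all 4 groups in 1 fit (-0.68, adjusted p = 0.0324 in edgeR).

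WRKY33, a target of MPK3 and MPK6 needed for camalexin synthesis, was at 332, 306 and 357 CPM in EST 24 h, 263, 212 and 178 CPM in EST + BAP, 135, 83.7 and 72.4 CPM in BAP, and 313, 205 and 203 CPM in DMSO. BAP lay below every other library, and EST overlapped DMSO only through DMSO replicate 1. By edgeR the log2 fold change was -1.34 ± 0.25 for BAP (adjusted p = 0.00191), 1.19 ± 0.23 for EST + BAP against BAP (adjusted p = 0.00425) and 0.47 ± 0.17 for EST (adjusted p = 0.0699). Without the replicate 1 libraries the last value was 0.70, and it was then called.

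Of group IIa, 2 of 3 members fell with BAP at 24 h, where 17.2% of all genes did, and 0 of 3 were called with EST, where 6.26% of genes were higher and 8.96% lower. WRKY60 (AT2G25000), a partner of WRKY18 and WRKY40 that also acts in abscisic acid responses, was at 14.8, 17.7 and 20.6 CPM in EST 24 h, 8.87, 9.56 and 8.61 CPM in EST + BAP, 5.6, 5.03 and 5.12 CPM in BAP, and 16.7, 16 and 15 CPM in DMSO. EST overlapped DMSO, BAP lay lowest, and EST + BAP lay between BAP and DMSO without overlap. WRKY60 had an edgeR log2 fold change of -1.62 ± 0.11 for BAP (adjusted p = 9.92e-06), -0.81 ± 0.09 for EST + BAP (adjusted p = 0.000208) and 0.80 ± 0.1 for EST + BAP against BAP (adjusted p = 0.000581).

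WRKY40 (AT1G80840) was at 92.2, 98.2 and 109 CPM in EST 24 h, 65.3, 46.1 and 43.5 CPM in EST + BAP, 77.5, 28 and 24.9 CPM in BAP, and 148, 83.3 and 97.8 CPM in DMSO. The replicate 1 libraries of BAP and DMSO were well above the others of their groups. BAP gave an edgeR log2 fold change of -1.36 ± 0.41 (adjusted p = 0.0213), lost without BAP replicate 2, BAP replicate 3 or DMSO replicate 1 (adjusted p up to 0.0739), and EST + BAP gave -1.08 ± 0.22 (adjusted p = 0.00439). WRKY18, at 68.2, 25.6 and 22.9 CPM in BAP and 102, 50.2 and 49.5 CPM in DMSO, had a log2 fold change of -0.79 (adjusted p = 0.155), and -0.91 with the replicate block (adjusted p = 0.000207). For EST + BAP against BAP the log2 fold change of WRKY18 was 0.47 (edgeR adjusted p = 0.366), 0.61 with the block (adjusted p = 0.0239) and 0.92 without the replicate 1 libraries (adjusted p = 0.000128). That of WRKY40 was 0.27 (edgeR adjusted p = 0.623), and 0.78 without the replicate 1 libraries (adjusted p = 0.000331).

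Of the other members in this pathway, WRKY22 and WRKY29, which act downstream of flagellin perception, and WRKY11, a negative regulator of basal resistance, fell under BAP at 24 h, with log2 fold changes of -0.54, -0.76 and -0.61. The call of WRKY22 was lost without BAP replicate 2, BAP replicate 3 or DMSO replicate 1. WRKY17, the closest relative of WRKY11, had a log2 fold change of 0.21 and was not called. Of group IIb, 4 of 8 members (WRKY61, WRKY36, WRKY9 and WRKY72) fell under BAP, where 17.2% of all genes did, and none was called under EST, where 6.26% of genes were higher and 8.96% lower. WRKY72 (AT5G15130), a factor of basal resistance, was at 21.5, 23.5 and 19.3 CPM in BAP and 61.5, 52.1 and 43 CPM in DMSO, an edgeR log2 fold change of -1.30 ± 0.14 (adjusted p = 8.48e-05). WRKY65 (AT1G29280) of group IIe was at 24, 29.3 and 26.3 CPM in BAP and 72.2, 65.8 and 57.6 CPM in DMSO, a log2 fold change of -1.32 ± 0.11 (adjusted p = 2.79e-05). For both genes every BAP library lay well below every DMSO library. WRKY33, WRKY40, WRKY53, WRKY29, WRKY41, WRKY61 and WRKY9 overlap a gene on the opposite strand, and although the libraries were strand-specific, whether the counting used strand is not given in the sources used here.

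Cell type markers and stress genes were also called in the comparisons of 24 h, though not all of them. A list of 11 touch and wound response genes had 8 lower in BAP 24 h, where 17.2% of all genes were lower and 17.6% higher. Its summed level was 1170 to 1700 CPM, against 2140 to 2950 CPM in DMSO. In EST + BAP 6 of the 11 were higher than in BAP, with 1760 to 2110 CPM summed. Of all genes 11.6% were higher in that comparison and 11.8% lower. The 4 leaf genes of photosynthesis were also all lower in BAP, at 99.5 to 154 CPM summed, against 304 to 351 CPM in DMSO. All 3 genes of suberized endodermis and periderm were higher in BAP, at 246 to 382 CPM summed, against 159 to 247 CPM in DMSO, and APL of the 2 phloem genes was lower. Of the 3 cambium genes, ANT was higher, and 0 of 2 xylem and 0 of 2 root hair genes were called. Under EST for 24 h, 3 of 3 cambium genes (ANT, WOX4 and PXY) fell, to a summed 102 to 105 CPM, against 239 to 283 CPM in DMSO. ASFT of the suberized list was higher and APL lower there, and RBCS3B of the leaf list was higher. Of the 11 touch and wound genes only ZAT12 was called, as higher, and 0 of 2 xylem and 0 of 2 root hair genes were. Of all genes 6.26% were higher under EST and 8.96% lower. In EST + BAP against BAP, ANT and WOX4 were lower, with the cambium genes at 216 to 248 CPM summed in EST + BAP and 356 to 447 CPM in BAP. There 3 of 3 genes of suberized endodermis and periderm and 2 of 2 xylem genes were higher, 1 of 2 phloem genes was higher and the other lower, RBCS1A of the leaf list was higher, and 0 of 2 root hair genes were called. The part of these shifts in the WRKY values was not tested.

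Of the members known from development, WRKY23, WRKY44 and WRKY13 rose with BAP for 24 h and none was called with EST alone. WRKY23 (AT2G47260), an auxin-responsive factor of flavonol synthesis and root growth, was called in all 4 comparisons of a BAP-containing treatment with DMSO, in every fit tried. At 4 h it was at 36.9, 43.7 and 50.9 CPM in EST, 94.6, 88 and 84.7 CPM in EST + BAP, 102, 101 and 108 CPM in BAP, and 37.4, 45.6 and 37.1 CPM in DMSO. At 24 h it was at 42.9, 47.6 and 48.3 CPM in EST, 105, 122 and 102 CPM in EST + BAP, 98, 98.2 and 116 CPM in BAP, and 62.6, 48.1 and 63.3 CPM in DMSO. At both times all 6 libraries with BAP lay above all 6 without it. The edgeR log2 fold change of BAP was 1.36 ± 0.1 at 4 h (adjusted p = 0.000494) and 0.82 ± 0.12 at 24 h (adjusted p = 0.000575), and that of EST at 24 h was -0.32 ± 0.11 (adjusted p = 0.0722).

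WRKY44 (AT2G37260), known as TTG2 and required for trichomes and seed coat mucilage, stood high with BAP alone. At 24 h it was at 0.614, 0.492 and 0.604 CPM in EST, 0.745, 0.443 and 0.699 CPM in EST + BAP, 3.04, 2.58 and 2.58 CPM in BAP, and 0.689, 0.673 and 0.77 CPM in DMSO. The BAP libraries lay above all others, and the other 3 groups were close together. The edgeR log2 fold change was 1.90 ± 0.23 for BAP against DMSO (adjusted p = 0.000173) and -2.14 ± 0.26 for EST + BAP against BAP (adjusted p = 0.000365).

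The EST by BAP interaction tests whether the EST effect differs with and without BAP, and over all genes 0.98% were higher and 0.423% lower at 24 h. WRKY44 was the only one of 54 members past the threshold, with an interaction of -1.82 (edgeR adjusted p = 0.0293). The call held in 3 of 12 fits that left out a library, with an adjusted p of at most 0.0661, and was lost without the replicate 1 libraries (log2 -1.84, adjusted p = 0.116). WRKY30 (AT5G24110), induced early by reactive oxygen, had -1.71 (adjusted p = 0.0609), and -1.73 with DESeq2 (adjusted p = 0.0101). It was at 1.84, 1.84 and 2.79 CPM in EST, 2.43, 1.82 and 1.49 CPM in EST + BAP, 4.61, 2.83 and 2.39 CPM in BAP, and 0.827, 1.27 and 1.05 CPM in DMSO, so that every treated library was above DMSO. For EST + BAP against BAP its log2 fold change was -0.75 (edgeR adjusted p = 0.0676), and -0.73 with the replicate block (adjusted p = 0.0132).

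WRKY13 (AT4G39410), which promotes lignified stem tissue, was at 3.82, 3.58 and 5.51 CPM in BAP 24 h and 1.38, 1.88 and 2.67 CPM in DMSO, an edgeR log2 fold change of 1.01 ± 0.26 (adjusted p = 0.0102) that was lost without DMSO replicate 2 (adjusted p = 0.0563). For EST + BAP it was 0.73 (adjusted p = 0.0506), and 0.82 with the replicate block (adjusted p = 0.0115). WRKY41, a regulator of seed dormancy, and WRKY56 were also higher in BAP 24 h, by 1.28 ± 0.28 (adjusted p = 0.00415) and 1.50 ± 0.35 (adjusted p = 0.0064) in edgeR. Against BAP, EST + BAP gave WRKY41 a log2 difference of -0.68 ± 0.22 (adjusted p = 0.0378), a call lost without EST + BAP replicate 2, EST + BAP replicate 3 or BAP replicate 2.

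At 4 h, EST alone called 0 of 53 members in edgeR, with 2 at an unadjusted p under 0.05 and 0 under DESeq2, where 0.00927% of genes were higher and 0.00464% lower. BAP raised 4 of 53 members (WRKY30, WRKY23, WRKY43 and WRKY13) and lowered 7 (WRKY60, WRKY75, WRKY26, WRKY51, WRKY29, WRKY65 and WRKY61), where 9.64% of genes were higher and 7.14% lower. The calls of WRKY60, WRKY75 and WRKY23 held in every fit, and the count of higher members was 2 without DMSO replicate 3 and 1 without BAP replicate 3. The count of lower members was 3 without BAP replicate 1 and 4 without DMSO replicate 2. With the replicate block WRKY56 was called higher too (log2 0.78, edgeR adjusted p = 0.0436). In the separate experiment of 24 h, 4 of the 4 members raised by BAP at 4 h were called higher again and 6 of the 7 lowered (85.7%) were called lower again, where 83.7% of all genes raised at 4 h and 83.6% of those lowered were, so the members were at the level of all genes. These were 44.4% and 42.9% of the members called at 24 h, where the shares over all genes were 47.3% and 34.3%.

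EST + BAP for 4 h raised WRKY23 and WRKY45 and lowered WRKY51, of 53 members, where 6.38% of genes were higher and 4.65% lower. WRKY51 was at 5.5, 4.97 and 4.73 CPM in EST + BAP 4 h and 7.09, 8.88 and 6.57 CPM in DMSO 4 h. Its edgeR log2 fold change was -0.59 ± 0.15 (adjusted p = 0.0333), the opposite sign to 24 h, and the call was lost when any library other than DMSO replicate 3 was left out. WRKY45, at 24.8, 23.3 and 22.5 CPM in EST + BAP 4 h and 18.3, 15.3 and 12.9 CPM in DMSO 4 h, had a log2 fold change of 0.59 ± 0.14 (adjusted p = 0.0272), and its call was lost when any library other than DMSO replicate 1 was left out (adjusted p up to 0.0996). Against BAP, EST + BAP for 4 h called 0 of 53 members in edgeR, with 10 at an unadjusted p under 0.05 and 1, WRKY18, higher under DESeq2, where 0.19% of genes were higher and 0.144% lower. WRKY18 was at 502, 339 and 485 CPM in EST + BAP and 229, 276 and 222 CPM in BAP, a log2 difference of 0.88 ± 0.16 (edgeR adjusted p = 0.0758, and 1.85e-05 with DESeq2). For the interaction at 4 h, 0% of genes and 0 of 53 members passed, with 1 member at an unadjusted p under 0.05.

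The change from 4 h to 24 h was tested over both times, in an edgeR fit chosen after seeing the data, and since the times were separate experiments, time and experiment cannot be told apart. For EST against DMSO, the log2 fold change was higher at 24 h than at 4 h for 7 of 54 members and lower for 0, where 1.92% of all genes were higher and 3.26% lower. For EST + BAP against DMSO it was higher for 7 of 54 members and lower for 0, against 2.42% and 2.11% of all genes. WRKY51, WRKY75, WRKY62, WRKY26 and WRKY45 were among the 7 in both, 2 comparisons that share their DMSO libraries. WRKY62 passed the low-count filter only through the 24 h groups with EST, so its place there carries no weight of its own. EST + BAP against BAP gave 16 of 54 higher and 1 lower, WRKY44, against 9.11% and 9.22% of all genes. WRKY62 was among the 16 and passed the filter only through the EST + BAP 24 h libraries. Its place in that count also carries no weight of its own. BAP against DMSO gave 2 of 53 higher and 5 lower, against 3.16% and 3.66%.

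Genes around the family in the immune pathway were described from lists chosen with earlier results known. Of the targets and defence outputs, 12 of 15 were tested at 24 h, and under EST 6 rose and 2 fell, where 6.26% of all genes were higher and 8.96% lower. SARD1 and CBP60G, the transcription factors that drive salicylic acid synthesis, rose by a log2 fold change of 2.88 and 2.00, and ICS1, the enzyme of that synthesis, by 1.45. The ethylene synthesis genes ACS2 and ACS6 fell, by 1.11 and 0.52 on the log2 scale. Under BAP 2 rose, the flagellin-induced receptor-like kinase gene FRK1 and ACS2, where 17.6% of all genes did. Another 6 fell, where 17.2% did. These included PHT1;1, a known target of WRKY45, and PHO1, a known target of WRKY6 and WRKY42, with log2 fold changes of -2.25 and -2.69. Against BAP, EST + BAP had 7 higher and 2 lower (FRK1 and ACS2), where 11.6% and 11.8% of all genes were. Among the 7, SARD1 was at 3.53 and PAD3, the last enzyme of camalexin synthesis and a WRKY33 target, at 1.75.

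Of 9 upstream kinases, 0 were called under EST at 24 h, where 6.26% of genes were higher and 8.96% lower, and 2 fell under BAP, near the 17.2% of all genes, MPK3 by 1.23 and MKK9 by 0.88 on the log2 scale. MPK3 was higher in EST + BAP than in BAP, by 0.80. Of the 3 VQ proteins that bind WRKY33, SIB1 and SIB2 were higher in EST + BAP than in BAP, by 0.75 and 0.60, and MKS1 fell under BAP by 0.64 on the log2 scale.

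The 2 searched forms were also counted by call. Of the 14 members lower in BAP 24 h, 10 (71.4%) held at least 1 in the window of 250 bases before to 50 bases after the start, against 32.4% of all promoters, and of the 9 that were higher 3 did (33.3%). Of the 28 members not called in BAP 24 h, 6 did (21.4%). Of the 14 members higher in EST 24 h, 7 (50%) held at least 1, and of the 40 not called 13 did (32.5%). WRKY62, WRKY59 and WRKY8, among these 14, passed the low-count filter only through EST. Their places in this count carry no weight of their own. Group IIa, which fell under BAP for 2 of 3 members, held neither form in these windows. A match is a description of letters, and the shorter core TTGAC, which WRKY51 holds in the bases printed above, was not counted.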

How the data were processed

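RNA of 24 root libraries (2 times, 4 treatments, 3 replicates) was ribosome-depleted and prepared strand-specifically. According to the submitters' notes, reads were trimmed with Trimmomatic 0.36 and quantified with kallisto 0.43.0. The authors used AtRTD2 transcripts and deposited estimated counts per gene as whole numbers. These counts were tested with edgeR 4.0.16 in R 4.3.3 (TMM, filterByExpr with a minimum count of 10, quasi-likelihood F-test), with the 6 libraries of each comparison or the 12 of a time for the interaction. Calls needed a log2 fold change of at least 0.5 (not for interactions) and an adjusted p of at most 0.05 over all genes tested. DESeq2 1.42.0 and other settings were alternatives. Tests were checked on simulated counts. CPM values were scaled by TMM over all 24 libraries.

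Members, gene lists and tests were chosen with earlier results of these data known. Named members were the best known ones of defence, development and phosphate supply, the 3 largest called rises and falls without overlap in each comparison, those called in EST + BAP against BAP or in an interaction (at most the 5 with the smallest p), and the highest per length in each subgroup. Other members were named after their values were seen. Same-numbered replicates deviated together in 5 of 8 comparisons (all correlations over 0.1), and the sources do not say whether equal numbers mark 1 repeat of the experiment. Gene positions, mRNA lengths and promoters are from RefSeq TAIR10.1, and copies were sought with blastn 2.17.0.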

Additional observations from a re-analysis of the deposited data

Results flagged for a closer look

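WRKY44 drew attention because the effect of EST differed with and without BAP at 24 h, with an interaction of -1.82 on the log2 scale (edgeR adjusted p = 0.0293). Among the 12 fits that each left out 1 library the call held in 3, and the part of single libraries beyond that was not tested.

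A further set drew attention because an effect differed between 4 h and 24 h, by an edgeR test over both times that was chosen after seeing the data. The times were separate experiments, so time and experiment cannot be told apart. For EST against DMSO, 7 of 54 members had a higher log2 fold change at 24 h than at 4 h and 0 a lower one, where 1.92% and 3.26% of all genes did. The differences on the log2 scale were 4.41 for WRKY62, 2.94 for WRKY59, 2.82 for WRKY51, 1.57 for WRKY54, 1.17 for WRKY75, 1.16 for WRKY45 and 0.98 for WRKY26.

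For BAP against DMSO, 2 of 53 members were higher at 24 h, WRKY44 by 1.44 and WRKY21 by 0.65, where 3.16% of genes were. Another 5 were lower, where 3.66% of genes were: WRKY60 by -0.97, WRKY72 by -0.89, WRKY65 by -0.69, WRKY36 by -0.51 and WRKY69 by -0.43. For EST + BAP against DMSO, 7 of 54 were higher at 24 h and 0 lower, where 2.42% and 2.11% of genes were. They were WRKY62 at 4.50, WRKY51 at 3.48, WRKY8 at 2.64, WRKY70 at 1.42, WRKY75 at 1.13, WRKY45 at 1.12 and WRKY26 at 0.64. Values for WRKY62 and WRKY59 rest on few counts. WRKY62 passed the low-count filter only through the 24 h groups with EST. Its place among the 7 of EST and the 7 of EST + BAP carries no weight of its own.

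For EST + BAP against BAP, 16 of 54 members were higher at 24 h and 1 lower, where 9.11% and 9.22% of genes were. WRKY62, among the 16, passed the low-count filter only through the EST + BAP 24 h libraries. Its place there carries no weight of its own. The lower one was WRKY44 at -2.04. The higher ones were WRKY62 at 3.83, WRKY51 at 3.66, WRKY59 at 3.03, WRKY75 at 1.58, WRKY50 at 1.39, WRKY53 at 1.33 and WRKY70 at 1.20. With smaller differences came WRKY26 at 0.78, WRKY60 at 0.68, WRKY54 at 0.68, WRKY45 at 0.55, WRKY47 at 0.52, WRKY57 at 0.49, WRKY36 at 0.47, WRKY3 at 0.44 and WRKY39 at 0.36.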

How the results depend on the processing

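No result of a named and called gene changed sign under any alternative. In 673 recomputed results of such genes the call was kept and in 50 it was lost. The 673 include the log2 limit of 0.05, a looser limit on the same fit that could not end a call. Some of these genes were picked as the largest called changes, which favours kept calls and signs. Of the recomputed counts of called members 240 were within 1.5 times the reported count and 46 were not. The 240 include counts of 0 that stayed at 0, which say little on stability. Under BAP for 4 h, the higher count of 4 became 2 with all 4 groups in 1 fit and ran from 1 to 5 when a library was left out, and the lower count of 7 ran from 3 to 8. Under EST + BAP for 4 h, the higher count of 2 ran from 1 to 2 and the lower count of 1 from 0 to 4, and the lower count was 2 with no low-count filter, with DESeq2 and at a log2 limit of 0.05. Against BAP at 4 h, EST + BAP had 1 higher member with no filter and with DESeq2, and 0 to 1 higher and 0 to 1 lower without a library. Under EST for 24 h, the higher count of 14 ran from 9 to 16 and the lower count from 0 to 1. At a log2 limit of 0.05, the lower count of 14 in BAP 24 h became 23, and the higher count of 15 in EST + BAP against BAP at 24 h became 25, with 1 to 3 lower members when a library was left out. For the interaction at 24 h, the lower count of 1 became 2 with no filter and with DESeq2 (WRKY30 added) and 0 without the replicate 1 libraries, and ran from 0 to 1 without a library, as did the higher count. The cause of these changes was not tested, apart from the fewer samples or the looser limit of the setting itself.

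With the replicate number as a block, EST 24 h against DMSO 24 h had 13 members higher and 1 lower. There the correlations of same-numbered libraries were 0.068 to 0.155, not all over the limit of 0.1. WRKY74 was lost (log2 0.51, edgeR adjusted p = 0.063) and WRKY42 was gained (-0.52, adjusted p = 0.0377). EST + BAP 4 h against DMSO 4 h, with correlations of -0.005 to 0.402, gained WRKY53. In the comparisons with all correlations over 0.1 the block ended none of the calls and added some. Among them were WRKY18, WRKY46 and WRKY51 lower in BAP 24 h. In EST + BAP against BAP at 24 h, WRKY18, WRKY46 and WRKY8 were added as higher and WRKY30 as lower. Depth limits the lowest members: WRKY62 and WRKY59 had 0 to 4 counts per library in BAP 24 h.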

Other observations

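Some members differed between the times in every group, DMSO included, which belongs to no comparison because the 4 h and 24 h plants came from separate experiments. WRKY18 was at 222 to 502 CPM over the 12 libraries of 4 h and at 22.9 to 102 CPM over the 12 libraries of 24 h. WRKY40 was at 201 to 412 CPM at 4 h and at 24.9 to 148 CPM at 24 h. WRKY38, a repressor of basal defence like WRKY62, was at 4.12 to 24.4 CPM at 4 h and at 0.885 to 2.93 CPM at 24 h. For these 3 genes, chosen after their values were seen, no library of 24 h reached the lowest library of 4 h. How many of all genes separated in this way was not counted, so nothing particular to the family follows. Time after transfer and experiment cannot be told apart here.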
